A study of Mus musculus with 4 samples.

Results

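The RNA of regulatory T cells (Treg) given TGFb and IL6 together was set against the RNA of Treg given each cytokine alone and neither, to find genes whose response to the pair was not the sum of the single responses on the log2 scale. The samples were the Treg channels of 13 two-colour Agilent whole mouse genome arrays, 13 of the 26 channels measured, and the dye that held Treg RNA on each array was taken from its label. CD4+ cells from mouse lymph nodes were stimulated with anti-CD3 at 1 ug/ml for 4 days and held with cytokines for 3 days. All groups shared anti-CD3 and IL2 at 100 units/ml. The 4 conditions were IL2 alone (3 arrays), IL2 with TGFb at 4 ng/ml (3 arrays), IL2 with IL6 at 25 ng/ml (3 arrays) and IL2 with TGFb and IL6 at those doses (4 arrays). The names IL2 alone, TGFb, IL6 and TGFb plus IL6 stand for them here. The second channel of each array held T-effector RNA of the same condition. How Treg and T-effector cells were separated is not stated in the labels, nor whether a condition's arrays are separate cultures. The p-values therefore measure only array-to-array spread, part of which may be technical.

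TGFb signals through receptor kinases and SMAD transcription factors, and in T cells it favours the Treg factor Foxp3. IL6 signals through its receptor, the shared chain gp130 and STAT3. Together these cytokines are known for turning activated CD4+ T cells toward the Th17 fate, in which cells make the IL17 cytokines, while IL2 signalling through STAT5 opposes that fate and maintains Treg.

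For each of 19901 genes the interaction was the difference of TGFb plus IL6 from IL6, minus the difference of TGFb from IL2 alone, in log2 signal. An interaction of 0 means that the single effects multiplied on the linear scale. A positive value means that the signal with both cytokines was higher than that product, and a negative value that it was lower. A gene was called at an adjusted p under 0.05 (limma's moderated test with Benjamini-Hochberg adjustment over all genes tested). A called gene was classed as synergy where its fitted mean with both cytokines lay beyond those of all 3 other conditions on the side of the interaction, and as antagonism otherwise.

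The label of the cells was checked against markers. Foxp3 was well above background in all 13 Treg channels, at 7.89 to 9.18 in log2 signal, and was higher in Treg than in the T-effector channel of the same array by 1.72 to 2.71 on all 13. Itgae, the CD103 integrin chain, was higher by 2.15 to 3.47 and Ctla4 by 0.29 to 1.77 on all 13 arrays, while Il2ra was higher on 12. The T cell genes Cd3d, Cd3e, Cd3g and Cd4 were well above background on all 13. Cd8b1 and the B cell gene Cd79b were also well above background on all 13 arrays, Ms4a1 on 11, Cd79a on 3, and the natural killer genes Klrb1c and Ncr1 on 2 each, so transcripts of other cell types were present in the Treg RNA. Between 38.9% and 69.7% of probes were well above background in a Treg channel, and the number of arrays limits the precision. The 13 arrays lay on 5 slides, here called A to E, and no slide held all 4 conditions. Slide B held only TGFb array 2 and TGFb plus IL6 arrays 2 and 4. On both arrays numbered 2 Treg RNA was in the dye Cy3, and the median negative-control signals were 123 and 121. Other Treg channels in Cy3 had 19.2 to 25.4. The shares of probes well above background on these arrays of slide B, 38.9% and 43%, were the lowest. Slide E held IL6 arrays 1 and 3, while IL6 array 2 lay on slide A and stood apart from them in several genes described here. Over all genes tested the median distance of IL6 array 2 from the mean of arrays 1 and 3 was 0.24. The median distance between arrays 1 and 3 was 0.2. Over the called genes these medians were 0.25 and 0.16. The 2 distances are not alike, since a mean of 2 arrays varies less than 1 array. Y-linked transcripts also differed among arrays of a condition. Ddx3y was at 8.84, 6.37 and 6.42 with IL2 alone and at 6.14, 8.92 and 5.81 with IL6. The high arrays, IL2 array 1 and IL6 array 2, both lay on slide A. With TGFb it was at 7.79 to 7.91 and with both cytokines at 7.77 to 8.12. The Ddx3y interaction did not pass the threshold (0.59 ± 0.86, SE, adjusted p = 0.963). Eif2s3y was at 6.46 and 6.38 on IL6 arrays 1 and 3, with no value on array 2, and at 8.78 to 9.59 with both, an interaction of 1.90 ± 0.67 (SE, adjusted p = 0.35). The X-linked transcript Xist was at 13.19, 11.03 and 12.52 with IL6 and at 11.88 to 12.77 with IL2 alone. It was at 11.11 to 11.29 with TGFb and at 11.38 to 12.01 with both. The labels give no sex, and the part of these differences in the results was not tested.

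In Treg, TGFb and IL6 together raised a set of genes that neither raised alone by a like amount, and IL6 removed much of the rise that TGFb alone gave to another set. The interaction was called for 183 of 19901 genes (0.92%), 110 positive (0.553%) and 73 negative (0.367%), and 1468 genes had an unadjusted p under 0.05. The 110 positive interactions ran from 0.56 to 4.44 with a median of 1.31, and the 73 negative ones ran from 0.59 to 2.5 in size with a median of 1.17. At least 2 log2 units were reached by 20 positive and 3 negative genes. The median over all genes tested was -0.012. Synergy made up 126 of the 183 called genes (68.9%), beside 43.7% of all genes tested, and 96 of the 126 were positive. Antagonism made up the other 57, 14 positive and 43 negative. In 109 of the 183 all 4 arrays with both cytokines lay beyond the 9 other Treg arrays on the side of the interaction, as did those of 797 of all genes tested (4%). These classes use the same arrays as the interaction and are descriptions.

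The shape of the response differed between the classes. Of the 96 genes of positive synergy, 32 had the order TGFb, IL2 alone, IL6, TGFb plus IL6 from lowest to highest, and 21 had the order IL2 alone, IL6, TGFb, TGFb plus IL6. In the first order TGFb alone lay below IL2 alone, and in the second each cytokine lay above it. Of the 43 genes of negative antagonism, 39 were highest with TGFb alone, and IL6 brought the signal down from there. Of the 14 genes of positive antagonism, 12 were highest with IL2 alone.

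**Figure D1:**
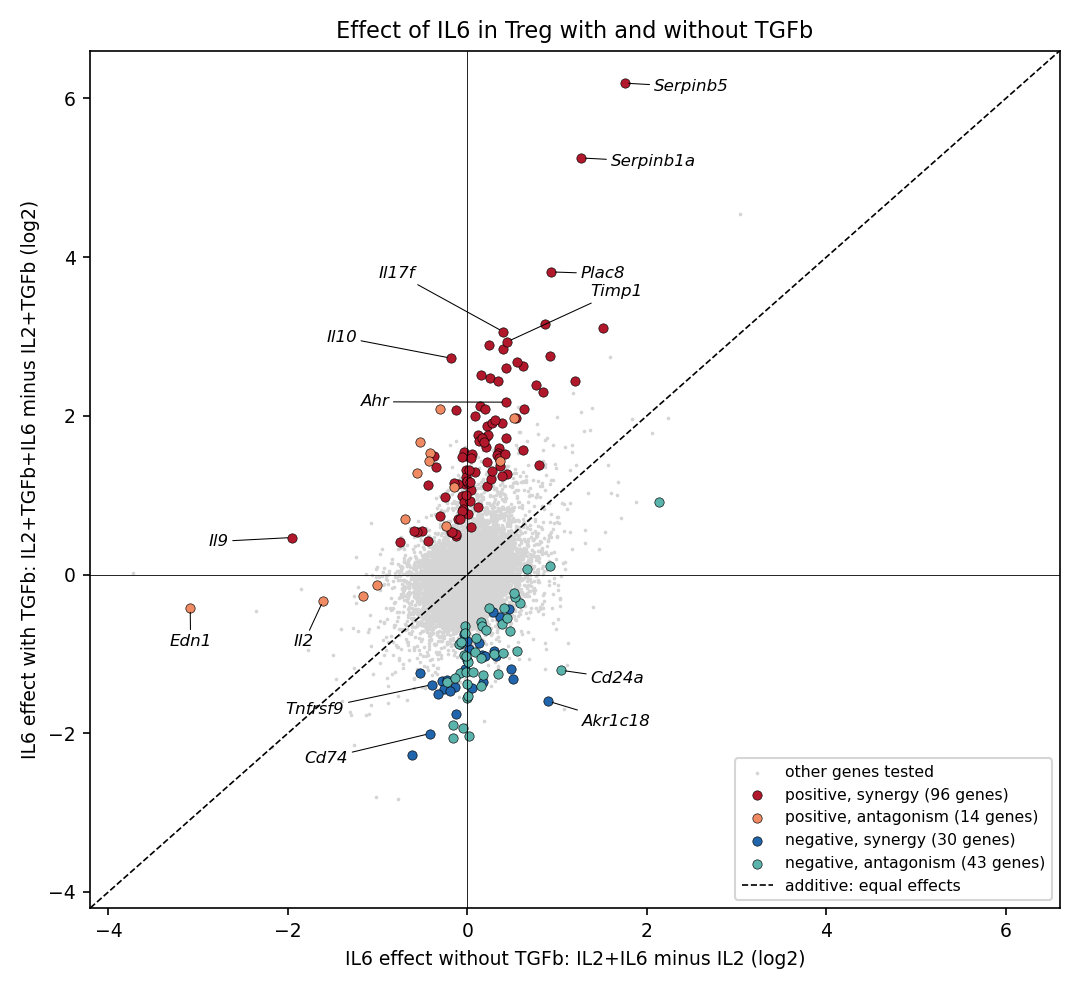
Each point is 1 gene of 19901, at its log2 change with IL6 in the absence of TGFb (x axis) and in its presence (y axis), and the diagonal marks equal changes, an interaction of 0. The 110 called positive genes lie above the diagonal and the 73 called negative genes below it.

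The cytokine genes gave the clearest cases of synergy. Il17f, an IL17 family cytokine of Th17 cells, was at 6.20, 6.45 and 6.27 with IL2 alone, 6.65, 6.70 and 6.84 with TGFb, 6.67, 6.51 and 6.85 with IL6, and 9.76, 9.87, 9.81 and 9.76 with both. The 4 arrays with both cytokines lay above all 9 others by almost 3 log2 units, and the others were near background, well above it on 1 of 3 arrays with IL2 alone, 2 of 3 with TGFb and 3 of 3 with IL6. TGFb and IL6 overlapped, and both lay above IL2 alone. The single effects added up to 0.85, and the measured effect of the pair was 3.51 ± 0.12 (SE). The interaction of 2.66 ± 0.18 (SE), a factor of 6.32, had an adjusted p of 8.05e-09. Between arrays of the same slide and dye, adding IL6 to TGFb raised Il17f by 3.17 on slide B, 2.97 on slide D and 3.11 on slide E, and adding IL6 to IL2 alone raised it by 0.31 on slide A.

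Il10, the anti-inflammatory cytokine made by many Treg, moved differently in the single conditions. It was at 8.61, 8.18 and 8.88 with IL2 alone, 7.32, 7.58 and 7.21 with TGFb, 8.88, 7.82 and 8.48 with IL6, and 9.82, 10.42, 9.496 and 10.62 with both. The TGFb arrays were the lowest and the arrays with both cytokines the highest, without overlap, while IL6 and IL2 alone overlapped. The single effects added up to -1.38 and the measured effect of the pair was 1.53 ± 0.29 (SE), which gave an interaction of 2.91 ± 0.43 (SE, adjusted p = 6.05e-04), a factor of 7.5. Within slides, adding IL6 to TGFb raised Il10 by 2.84, 2.29 and 2.50, and adding IL6 to IL2 alone changed it by -0.79.

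Other cytokines of the Th17 group did not share this pattern. Il9, a growth factor for mast cells and T cells, was at 10.79, 9.37 and 9.23 with IL2 alone, 9.51, 9.81 and 9.45 with TGFb, 8.14, 6.91 and 8.47 with IL6 and 9.91, 10.28, 9.81 and 10.22 with both. The IL6 arrays were the lowest, and the other 3 conditions overlapped. Its interaction was 2.42 ± 0.53 (SE, adjusted p = 0.0229). The call was lost without IL2 array 1 (1.76, adjusted p = 0.0788), TGFb array 1 (2.39, 0.0858), TGFb array 3 (2.36, 0.096), or TGFb plus IL6 array 1 (2.48, 0.0516), 2 (2.35, 0.0711) or 4 (2.37, 0.057). Il17a, the other main Th17 cytokine, was at 6.04 to 6.74 without IL6, 7.24, 7.24 and 7.48 with IL6 and 7.62, 7.36, 7.87 and 7.58 with both. The last 2 ranges overlapped, and the interaction of 0.54 ± 0.24 (SE) did not pass (adjusted p = 0.628), although it did with Agilent's own processed signals (1.42, adjusted p = 0.00626).

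Il21, which sustains Th17 and follicular helper cells, was at 7.83 to 8.28 with IL2 alone and 6.52 to 7.10 with TGFb. It was at 11.52, 9.62 and 11.86 with IL6 and at 11.18 to 11.46 with both. The interaction of 1.51 ± 0.53 (SE) did not pass (adjusted p = 0.323), and IL6 array 2 was the low one. With slide as a block the value was 1.90 (adjusted p = 0.041), and without IL6 arrays 1 and 3 it was 2.96 (adjusted p = 3.34e-04). Il22, a cytokine that acts on epithelial cells, was not well above background on any TGFb array and was at 10.19, 7.54 and 9.97 with IL6 and 6.77 to 7.37 with both. Its interaction was -0.67 ± 0.64 (SE, adjusted p = 0.929), turned to -1.43 (adjusted p = 0.00103) without IL6 array 2 and to 1.104 without IL6 arrays 1 and 3, so no direction is given. The Th1 cytokine Ifng behaved likewise at a high level, 13.22, 10.51 and 13.28 with IL6 and 13.33 to 13.63 with both. Its interaction of -0.74 ± 0.65 (SE, adjusted p = 0.914) went to -1.56 (adjusted p = 9.33e-04) without IL6 array 2 and to 1.101 without arrays 1 and 3.

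**Figure D2:**
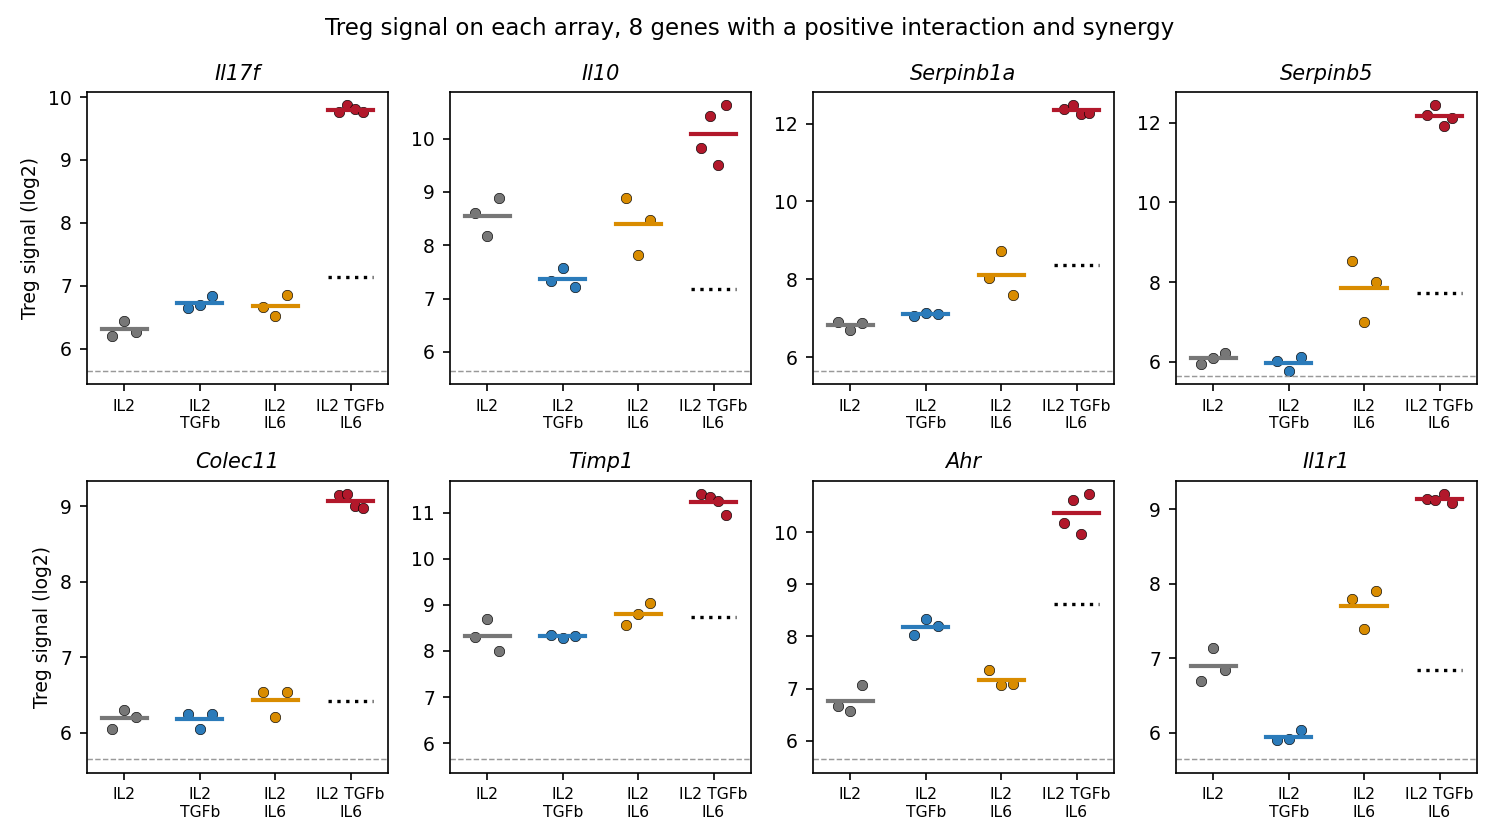
Each panel shows the log2 signal of 1 gene on each Treg array (points) in the 4 conditions, with bars at the means, a dotted line at the signal with both cytokines if the single effects added, and a grey dashed line at the bottom of the scale. In Il17f, Il10, Serpinb1a, Serpinb5, Colec11, Timp1, Ahr and Il1r1 the 4 arrays with both cytokines lie above the dotted line and above the 9 others.

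The highest fitted interactions were in protease inhibitors of the serpin family. Serpinb5, known as maspin, was not well above background on any array with IL2 alone or TGFb, was at 8.54, 6.99 and 7.99 with IL6, and reached 12.20, 12.44, 11.91 and 12.11 with both. Its signal with both cytokines was at least 63.4-fold higher than with IL2 alone and at least 57.6-fold higher than with TGFb, where the bound sets the dim condition at the lowest signal well above background. The fitted interaction was 4.44 ± 0.45 (SE, adjusted p = 4.53e-06), but its TGFb effect without IL6 is a difference of background signals, so its size is not exact. Serpinb1a, an inhibitor of neutrophil proteases, was at 6.91, 6.69 and 6.88 with IL2 alone, 7.06, 7.14 and 7.10 with TGFb, 8.03, 8.71 and 7.60 with IL6 and 12.38, 12.47, 12.24 and 12.28 with both. Its single effects added up to 1.53 and the pair gave 5.51 ± 0.18 (SE), an interaction of 3.98 ± 0.26 (SE, adjusted p = 8.05e-09). The related genes Serpinb1c (2.44 ± 0.19, adjusted p = 6.87e-08) and Serpinb1b (2.36 ± 0.19, adjusted p = 1.06e-07, chosen after its values were seen) had the same shape. The Serpinb1 genes are related in sequence, and how much of each probe's signal came from another of them was not tested.

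Secreted proteins outside the cytokine group also showed synergy. Colec11, a collectin that binds sugars on microbes, was at 6.05 to 6.54 on all 9 arrays without the pair, and well above background on 4 of them. It was at 9.15, 9.16, 9.001 and 8.97 with both, an interaction of 2.66 ± 0.16 (SE, adjusted p = 4.87e-09), the smallest adjusted p of the 47 genes chosen by rule. Timp1, an inhibitor of matrix metalloproteases, was at 8.30, 8.70 and 7.99 with IL2 alone, 8.35, 8.28 and 8.32 with TGFb, 8.57, 8.81 and 9.03 with IL6 and 11.41, 11.34, 11.25 and 10.94 with both. The 4 arrays with both lay almost 2 log2 units above the 9 others, and the interaction was 2.49 ± 0.21 (SE, adjusted p = 2.83e-07). The 2 other Timp1 probes gave 1.81 and 1.94. Plac8, a cysteine-rich protein of lymphoid and myeloid cells, was at 12.71 to 12.96 with both but varied among the IL6 arrays (11.05, 8.27 and 11.01) and among those with IL2 alone (8.16, 9.97 and 9.79). Its interaction of 2.88 ± 0.67 (SE, adjusted p = 0.0388) was past the threshold in 4 of 13 fits that left out 1 array. It was kept without IL2 array 1 or without any 1 of the 3 IL6 arrays, the range of all 13 was 2.07 to 3.43, and without IL6 arrays 1 and 3 it was 4.67 (adjusted p = 3.62e-05).

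Of 4 genes, 2 were of synergy with a positive interaction (Il17f and Colec11). The other 2 were of antagonism, Il2 with a positive interaction and Nupr1 with a negative one. The 250 bases before the start of each gene are printed to show the regulatory sequence next to it. They come from RefSeq's tables for GRCm38.p6 and run 5′ to 3′ on the gene's strand, at chr1:20784271-20784520 (Il17f), chr12:28623331-28623580 (Colec11), chr3:37125955-37126204 (Il2) and chr7:126625471-126625720 (Nupr1), all on the minus strand. Capitals mark matches to TTCNNNGAA, a form of the STAT site, searched on both strands.
Il17f: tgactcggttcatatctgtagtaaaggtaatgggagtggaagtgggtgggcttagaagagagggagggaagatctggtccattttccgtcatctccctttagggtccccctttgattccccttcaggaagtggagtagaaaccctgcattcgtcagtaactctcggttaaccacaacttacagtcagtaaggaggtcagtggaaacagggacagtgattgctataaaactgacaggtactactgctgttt
Colec11: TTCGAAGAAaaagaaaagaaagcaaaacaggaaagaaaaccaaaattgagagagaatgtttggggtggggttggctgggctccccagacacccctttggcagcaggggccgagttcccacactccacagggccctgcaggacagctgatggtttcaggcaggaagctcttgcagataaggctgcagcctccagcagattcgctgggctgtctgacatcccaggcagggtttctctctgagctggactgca
Il2: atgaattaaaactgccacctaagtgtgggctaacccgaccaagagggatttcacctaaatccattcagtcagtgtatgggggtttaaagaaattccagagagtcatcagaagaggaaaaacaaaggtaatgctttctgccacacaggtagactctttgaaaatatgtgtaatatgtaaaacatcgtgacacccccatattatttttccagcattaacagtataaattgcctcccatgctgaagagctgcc
Nupr1: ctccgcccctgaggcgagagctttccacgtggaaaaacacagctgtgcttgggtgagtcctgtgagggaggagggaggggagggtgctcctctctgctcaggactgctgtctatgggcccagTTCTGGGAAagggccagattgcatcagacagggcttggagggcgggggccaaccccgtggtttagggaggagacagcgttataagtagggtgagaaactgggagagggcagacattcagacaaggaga
Colec11 and Nupr1, which lie on opposite sides of the interaction, each held 1 match, and Il17f and Il2 held none. Such a match stood in 7.02% of 32851 promoters of that length, in 5 of 105 of called positive genes (4.76%) and in 2 of 71 of called negative genes (2.82%). The SMAD palindrome GTCTAGAC stood in 0.167% of all promoters, in 2 of the 105 and in none of the 71. The core GCGTG bound by the aryl hydrocarbon receptor stood in 28.2% of all, 36.2% of the positive and 39.4% of the negative set. These are counts of letters and not of bound sites.

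Receptors and transcription factors followed in smaller steps. Il1r1, the receptor through which IL1 sustains Th17 cells, was at 6.69, 7.15 and 6.84 with IL2 alone and at 7.80, 7.39 and 7.91 with IL6. It was not well above background on any TGFb array, and was at 9.13, 9.12, 9.21 and 9.08 with both. The signal with both was at least 7.21-fold higher than with TGFb, and the interaction was 2.29 ± 0.19 (SE, adjusted p = 3.3e-07). Il6st, which encodes gp130, the chain that carries the IL6 signal, was at 8.09 to 8.40 with IL2 alone, 8.91 to 9.10 with TGFb, 8.56 to 8.72 with IL6 and 10.54 to 10.95 with both. Both single effects were positive and added up to 1.20, and the pair gave 2.49 ± 0.12 (SE), an interaction of 1.29 ± 0.17 (SE, adjusted p = 1.46e-04).

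Ahr, the aryl hydrocarbon receptor, was at 6.66, 6.56 and 7.07 with IL2 alone, 8.03, 8.33 and 8.19 with TGFb, 7.35, 7.07 and 7.10 with IL6 and 10.16, 10.62, 9.97 and 10.73 with both. The 4 conditions did not overlap except that IL6 array 2, at 7.07, lay level with the highest array of IL2 alone. The single effects added up to 1.88 and the pair gave 3.62 ± 0.19 (SE), an interaction of 1.74 ± 0.28 (SE, adjusted p = 0.00116). Without slide E it was 1.77 with an adjusted p of 0.0501. Cyp1b1 and Ugt1a6b, enzymes of foreign-compound metabolism and textbook targets of this receptor, were chosen after their values were seen. Cyp1b1 was well above background on 1 of the 9 arrays without the pair, at 5.84 to 6.27, and was at 8.15 to 8.52 with both, an interaction of 1.90 ± 0.18 (SE, adjusted p = 2.92e-06). Ugt1a6b had an interaction of 1.42 ± 0.19 (SE, adjusted p = 1.46e-04).

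Cebpd, a transcription factor induced by STAT3, was at 7.12, 7.21 and 8.06 with IL2 alone, 6.45, 6.88 and 6.42 with TGFb, 7.62, 7.95 and 7.35 with IL6 and 8.59, 8.88, 8.38 and 8.94 with both. Its interaction of 1.98 ± 0.36 (SE, adjusted p = 0.004) lost the threshold without IL6 arrays 1 and 3 (1.66, adjusted p = 0.116), without slide D (2.12, 0.065) and without slide E (1.53, 0.175). Socs3, the feedback inhibitor of IL6 signalling, was at 11.59, 12.46 and 11.66 with IL6 and 11.80 to 12.27 with both, and its interaction of 1.16 ± 0.35 (SE) did not pass (adjusted p = 0.185). It passed without IL2 array 1 (1.603, adjusted p = 0.00532) and without IL6 array 2 (1.41, adjusted p = 0.0442). Maf (-0.06 ± 0.54, adjusted p = 0.993), Il23r (-0.04 ± 0.17, adjusted p = 0.989) and Ccl20 (0.30 ± 0.68, adjusted p = 0.978) did not pass either, and the sign of each turned under several settings. The other Maf probes gave 0.40 to 0.99 and did not pass. A p above the threshold does not show that the effects of these genes added.

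Another group of positive genes was low with TGFb alone and was not low when IL6 was added. Slamf6, a receptor of the SLAM family on T and B cells, was at 11.11, 10.60 and 10.55 with IL2 alone, 8.39, 8.60 and 8.55 with TGFb, 10.07, 10.53 and 10.07 with IL6 and 10.22, 10.22, 10.37 and 9.91 with both. This was antagonism, since TGFb lowered Slamf6 by 2.24 without IL6 and changed it by -0.04 with it, and the interaction was 2.19 ± 0.31 (SE, adjusted p = 3e-04). Its other probe gave 1.27 (adjusted p = 8.86e-04). Satb1, a chromatin organiser of T cells, was at 12.13 to 12.72 with IL2 alone, 9.83 to 10.02 with TGFb, 12.59 to 13.18 with IL6 and 11.77 to 12.10 with both. Its signal with both lay between, and the interaction was 1.45 ± 0.25 (SE, adjusted p = 0.00216). The other Satb1 probe gave 1.12 ± 0.44 (SE) and did not pass (adjusted p = 0.491). Median centring in place of quantile normalization between arrays ended the call for Slamf6 (2.26, adjusted p = 0.0697) and Satb1 (1.51, adjusted p = 0.185), and leaving out slide D ended that for Satb1 (1.34, adjusted p = 0.108).

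Pou2af1, a B cell coactivator that T cells also make, was at 11.01, 11.03 and 11.82 with IL2 alone, 8.97, 9.15 and 8.67 with TGFb, 10.70, 11.96 and 10.56 with IL6 and 11.01, 10.99, 10.89 and 10.99 with both. Its interaction of 2.39 ± 0.41 (SE, adjusted p = 0.00254) was the only one called among 12 B cell markers, and the 11 others had a summed log2 signal of 13.19 to 13.33 with TGFb, 12.36 to 12.66 with IL2 alone, 11.89 to 12.21 with IL6 and 12.32 to 12.46 with both. Their sum was highest where Pou2af1 was lowest. Without IL6 arrays 1 and 3 the interaction was 1.503 (adjusted p = 0.133). Cxcl10, an interferon-induced chemokine, was at 7.35 to 8.09 with IL2 alone, 5.54 to 6.43 with TGFb, 6.78 to 7.84 with IL6 and 7.21 to 7.95 with both. Its interaction of 1.85 ± 0.43 (SE, adjusted p = 0.0388) stayed past the threshold in 3 of 13 fits that left out 1 array, those without IL2 array 2, IL6 array 1 or IL6 array 2, and the 13 values ran from 1.57 to 2.13. It was 0.91 (adjusted p = 0.0841) on slides D and E alone.

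Il2 and Edn1 were the strongest cases of genes that either cytokine lowered and the pair lowered little further. Il2, the growth factor that activated T cells make, was at 8.55, 8.33 and 8.32 with IL2 alone, 6.51, 6.70 and 6.41 with TGFb, 6.76, 6.72 and 6.86 with IL6 and 6.22, 6.17, 6.25 and 6.23 with both. None of the 4 conditions overlapped, the order was IL2 alone, IL6, TGFb and then the pair, and 1 of the 4 arrays with the pair was well above background. The single effects added up to -3.46 and the pair gave -2.18 ± 0.10 (SE), an interaction of 1.28 ± 0.14 (SE, adjusted p = 1.62e-05), a factor of 2.42. Its other probe gave 0.41 with an adjusted p of 0.75. Edn1, which encodes the vasoconstrictor endothelin, was at 9.76, 9.48 and 10.40 with IL2 alone, 6.35, 6.89 and 6.02 with TGFb, 7.30, 6.20 and 6.93 with IL6 and 5.87, 6.13, 5.92 and 6.02 with both. The interaction was 2.66 ± 0.44 (SE, adjusted p = 0.00177) and was 2.15 (adjusted p = 0.553) with Agilent's own processed signals. Edn1 was not well above background on any array with both cytokines, and its signal with IL2 alone was at least 13.6-fold higher.

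The bottom of the scale limits these interactions. After background correction it was 5.64, the log2 of the offset of 50, and the sum of the single effects would have put Il2 at 4.94 and Edn1 at 3.32 with both cytokines. Hdc, which makes histamine, and Nts, which encodes neurotensin, were chosen after their values were seen because they shared this place, with sums at 5.24 and 5.21. A signal as low as these sums could not have been measured, so for Il2, Edn1, Hdc and Nts an interaction of 0 could not have been observed. They were 4 of the 14 genes of positive antagonism and 53 of all 19901 genes were so placed (0.266%), while none of the 96 genes of positive synergy and none of the 73 negative genes were. Counted against the mean lowest signal well above background, 6.04, the sums of 9 of the 110 positive genes fell below it, those of Cxcl10 (5.67) and of the synergy genes Gdf6, Lbp, Postn and Rnf152 (5.85 to 6.02) among them.

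**Figure D3:**
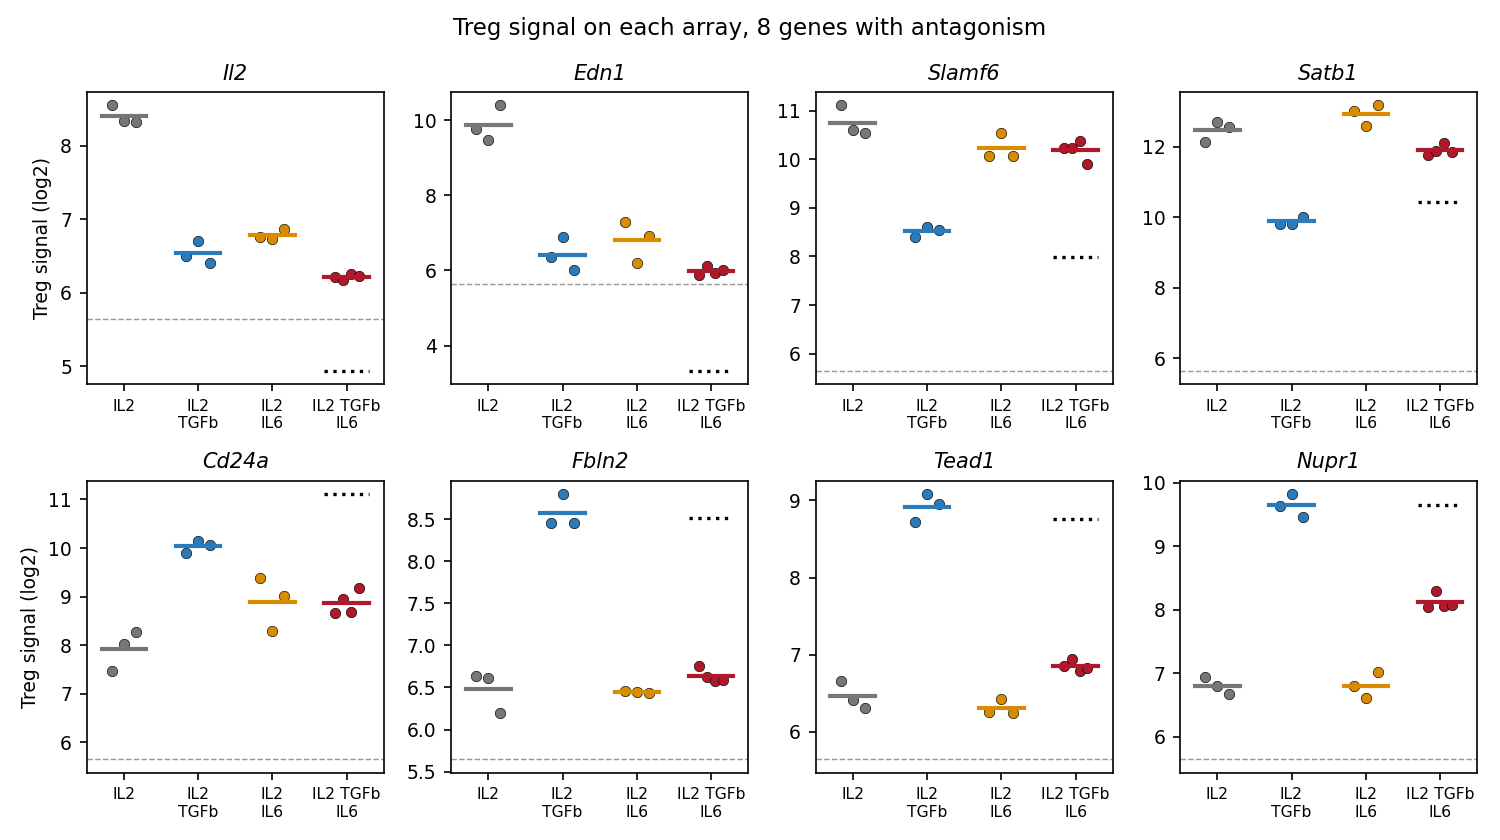
Each panel shows the log2 signal of 1 gene on each Treg array (points) in the 4 conditions, with bars at the means, a dotted line at the signal with both cytokines if the single effects added, and a grey dashed line at the bottom of the scale. For Il2 and Edn1 the dotted line lies below the bottom of the scale, and for Cd24a, Fbln2, Tead1 and Nupr1 the signal with both lies under the dotted line and under that with TGFb alone.

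On the negative side most antagonism was a rise with TGFb that IL6 cut short. Fbln2, an extracellular matrix protein, was at 6.64, 6.61 and 6.20 with IL2 alone, 8.46, 8.80 and 8.45 with TGFb, 6.46, 6.45 and 6.43 with IL6 and 6.75, 6.62, 6.58 and 6.59 with both. The 3 TGFb arrays stood alone and the other 10 overlapped. The single effects added up to 2.03 and the pair gave 0.15 ± 0.13 (SE), an interaction of -1.88 ± 0.19 (SE, adjusted p = 4.53e-06). Tead1, a transcription factor of the Hippo pathway, was at 8.72, 9.09 and 8.96 with TGFb, 6.24 to 6.66 on the 6 arrays without TGFb and 6.85, 6.94, 6.79 and 6.82 with both. Its interaction was -1.91 ± 0.22 (SE, adjusted p = 3.1e-05). Pfn2, an actin-binding profilin, was at 9.88, 10.02 and 10.02 with TGFb and 7.92, 7.98, 7.83 and 7.89 with both, an interaction of -2.06 ± 0.33 (SE, adjusted p = 0.00116). Nlrp6, an innate immune sensor, had an interaction of -1.74 ± 0.27 (SE, adjusted p = 9.86e-04). Its other probe, well above background on 2 Treg arrays, gave -0.58 (adjusted p = 0.187). Agilent's own processed signals ended the calls for Pfn2 (-2.46, adjusted p = 0.0584) and Nlrp6 (-2.12, adjusted p = 0.461), median centring ended both as well, and leaving out slide E ended that for Pfn2 (-2.33, adjusted p = 0.0555).

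Other genes kept part of the rise. Nupr1, a stress-induced chromatin protein and a target of Atf4, was at 6.95, 6.80 and 6.67 with IL2 alone, 9.64, 9.83 and 9.47 with TGFb, 6.80, 6.61 and 7.02 with IL6 and 8.05, 8.30, 8.06 and 8.08 with both. The pair lay between, well apart from either side, and the interaction was -1.54 ± 0.21 (SE, adjusted p = 2.94e-04). Without slide E it was -1.24 with an adjusted p of 0.056. Adgrg1, the adhesion receptor GPR56 of cytotoxic lymphocytes, was at 8.52, 8.57 and 8.55 with TGFb and 7.38, 7.39, 7.06 and 7.33 with both, and its interaction was -1.6 ± 0.19 (SE, adjusted p = 4.47e-05). Mical2, an actin-regulating enzyme chosen after its values were seen, was not well above background on any array without TGFb, and was at 9.34 to 9.75 with TGFb and 7.70 to 8.24 with both. Its interaction was -1.56 ± 0.25 (SE, adjusted p = 0.00139). The hair keratin genes Krt87 (-1.56 ± 0.17, adjusted p = 1.34e-05) and Krt86 (-1.01 ± 0.18, adjusted p = 0.00337), which are close copies, and Tlr2, a receptor for bacterial lipopeptides (-1.17 ± 0.27, adjusted p = 0.0347), were chosen in the same way and were also highest with TGFb alone. Within negative antagonism the signal with TGFb was well above background on all 3 arrays in 40 of 43 genes, and IL2 alone and IL6 both were in 20, so in many of these genes the level without TGFb was not measured above background on every array.

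Cd24a, a small glycoprotein of the cell surface, was raised by either cytokine alone but not further by the pair. It was at 7.47, 8.03 and 8.26 with IL2 alone, 9.89, 10.15 and 10.06 with TGFb, 9.38, 8.28 and 9.004 with IL6 and 8.66, 8.95, 8.68 and 9.17 with both. IL6 and TGFb plus IL6 overlapped, below the TGFb arrays. The single effects added up to 3.23 and the pair gave 0.98 ± 0.21 (SE), an interaction of -2.25 ± 0.31 (SE, adjusted p = 2.37e-04), a factor of 4.76. Within slides, adding IL6 to TGFb lowered Cd24a by 1.20, 1.38 and 1.23, and adding it to IL2 alone raised it by 0.81.

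Negative synergy, a signal lower with the pair than in any other condition, was found for 30 genes. Cd74, the invariant chain of MHC class II, was at 9.59, 9.90 and 9.54 with IL2 alone, 9.61, 9.76 and 9.49 with TGFb, 9.25, 9.23 and 9.27 with IL6 and 7.61, 7.74, 7.69 and 7.42 with both. The 4 arrays with both lay well under the 9 others, and the interaction was -1.58 ± 0.20 (SE, adjusted p = 7.39e-05). It was the only one called of 13 myeloid and dendritic markers, whose summed log2 signal was 11.28 to 11.74 with IL2 alone, 11.04 to 11.12 with TGFb, 11.14 to 11.5 with IL6 and 10.61 to 10.98 with both. Cd74 is part of that sum, and the 12 other markers summed to 10.74 to 11.27 with IL2 alone, 10.27 to 10.57 with TGFb, 10.7 to 11.15 with IL6 and 10.4 to 10.83 with both. Without Cd74 the pair overlapped every other condition. The part of such cells in the Cd74 signal was not tested, and in bulk RNA fewer cells of a type and less RNA per cell cannot be told apart. Eno3, the muscle form of the glycolytic enzyme enolase, was at 10.24 to 10.79 with IL2 alone, 10.39 to 10.97 with TGFb, 9.83 to 10.17 with IL6 and 8.16 to 8.66 with both, and its interaction was -1.65 ± 0.24 (SE, adjusted p = 5.41e-04). Median centring ended the call for Cd74 (-1.43, adjusted p = 0.0779) and Eno3 (-1.51, adjusted p = 0.104), and leaving out slide E ended that for Eno3 (-1.61, adjusted p = 0.0628).

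Tnfrsf9, the costimulatory receptor 4-1BB of activated T cells and Treg, was at 11.79 to 12.48 with IL2 alone, 11.23 to 11.52 with TGFb, 11.35 to 12.01 with IL6 and 9.90 to 10.22 with both. Its interaction of -0.99 ± 0.19 (SE, adjusted p = 0.0069) was lost without IL6 arrays 1 and 3 (-0.75, adjusted p = 0.13), and its other probe, above background on 3 Treg arrays, gave 0.18. Akr1c18, which breaks down progesterone, was at 12.65 to 13.08 without IL6, 14.36, 12.29 and 14.44 with IL6 and 11.20 to 11.56 with both. Its interaction of -2.50 ± 0.47 (SE, adjusted p = 0.00652) was the most negative of the 73, and without IL6 arrays 1 and 3 it was -1.02 (adjusted p = 0.00948). H1f5, a linker histone, had an interaction of -1.83 ± 0.31 (SE, adjusted p = 0.00208), with 8.81 to 9.29 with both, level with the 9.10 to 9.15 of IL2 alone, so that it met the definition of synergy by a margin within the spread. Lsr, a lipoprotein receptor of tight junctions, had -1.63 ± 0.38 (SE, adjusted p = 0.0419), past the threshold only without IL2 array 2 or IL2 array 3 when 1 array was left out, with 13 values from -1.86 to -1.13.

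Genes of the Treg program went both ways, and Foxp3, its defining factor, did not pass the test. Foxp3 was at 8.57, 8.12 and 8.75 with IL2 alone, 8.83, 9.04 and 8.47 with TGFb, 8.71, 8.81 and 7.89 with IL6 and 9.06, 9.18, 8.87 and 8.94 with both. The arrays with both lay above those of IL2 alone and of IL6 and overlapped those of TGFb, and its interaction was 0.35 ± 0.32 (SE, adjusted p = 0.919). Il2ra, the high-affinity IL2 receptor chain, had -0.50 ± 0.31 (SE, adjusted p = 0.833), and another of its 4 probes gave -1.21 with an adjusted p of 0.00963. Ikzf2, which encodes Helios, was at 10.39, 10.16 and 9.64 with IL2 alone, 7.89, 8.06 and 8.24 with TGFb, 10.12, 10.15 and 10.35 with IL6 and 7.21, 7.13, 7.44 and 7.14 with both. Here the pair was lowest and IL6 alone was level with IL2 alone, but the interaction of -1.07 ± 0.30 (SE) did not pass (adjusted p = 0.109). It passed without IL2 array 1 (-1.37, adjusted p = 0.0239). The other Ikzf2 probes gave values from -0.62 to -0.04 and did not pass. Smad7, the feedback inhibitor of TGFb signalling, was at 7.12 to 7.73, 8.53 to 8.81, 7.81 to 8.71 and 9.12 to 9.94 in IL2 alone, TGFb, IL6 and the pair, with an interaction of -0.29 ± 0.29 (SE, adjusted p = 0.937). Of 25 Treg genes tested, Il10 was called positive and Tnfrsf9 negative, 8% against 0.92% of all genes. The median interaction was 0.031, with 7 of 25 at an unadjusted p under 0.05, against 7.38% of all genes.

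The gene lists, chosen with earlier results of these data known, are described by their counts beside the 0.92% of all genes called and their median of -0.012. Of 23 Th17 genes, 5 were called, all positive (Il17f, Il9, Il1r1, Ahr and Ltb4r1, a leukotriene B4 receptor), with a median of 0.486. Of 22 genes of the IL6 and STAT3 response, Cebpd and Il6st were called and the median was 0.302. Of 27 genes of the TGFb response none were called, 4 had an unadjusted p under 0.05, and the median was -0.009. Of 15 Il10 genes and regulators, Il10 and Ahr were called positive, with a median of 0.168. Of 15 genes of the IL2 and gamma chain receptor group, Il2 was called, with a median of -0.072.

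Lists of T cell states other than Th17 and Treg varied in their medians with few calls. The 12 follicular helper genes had the highest median of the 23 lists, 0.781, with Slamf6 called and 8 of 12 at an unadjusted p under 0.05. Their regulator Bcl6 was at 1.83 ± 0.72 (SE, adjusted p = 0.476) and the homing receptor Cxcr5 at 1.03 ± 0.26 (SE, adjusted p = 0.0626). Of 15 genes of naive and memory cells 2 were called, Satb1 among them, with a median of 0.468, and the IL7 receptor Il7r, at 0.98 ± 0.24 (SE, adjusted p = 0.0515), was just outside the threshold. None of the 21 Th1 and cytotoxic genes (median -0.186) and none of the 14 Th2 genes (median -0.244) were called, with 7 and 1 at an unadjusted p under 0.05. In the first of these, the IL18 receptor Il18r1 was at -1.67 ± 0.43 (SE, adjusted p = 0.0738). Of 19 chemokine genes 2 were called, Cxcl10 among them (median 0.127), and of 22 SOCS and cytokine receptor genes Il1r1 and Il6st were called (median 0.318).

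Metabolic and growth genes gave no call on the positive side, where 0.553% of all genes tested were called. At that share, lists of this size hold few or no calls. An unadjusted p under 0.05 was found for 7.38% of all genes by limma. Of 22 cholesterol synthesis genes 18 had a negative interaction and the median was -0.358, with none called by limma and 1 at an unadjusted p under 0.05. Of 21 glycolysis and hypoxia genes 16 were negative, the median was -0.357, none were called and 3 had an unadjusted p under 0.05. The 20 genes of amino acid transport and Atf4 had a median of -0.346 and 1 call, Nupr1. None were called of 30 cell cycle genes (median -0.027), 23 interferon genes (0.224) or 20 immediate early genes (0.036), with 2, 2 and 3 at an unadjusted p under 0.05. No call was made among 14 CD8 and natural killer markers (0.221), 7 erythroid and stromal markers (-0.32) or 11 T cell identity genes (-0.071), with 2, 0 and 1 at an unadjusted p under 0.05.

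The same interaction was tested in the T-effector channels of the same arrays. The difference between Treg and T-effector was called for 24 of 19901 genes (0.121%), 11 of them among the 183. Over the 110 positive genes the median interaction was 1.31 in Treg, where they were chosen, and 1.17 in T-effector cells. Over the 73 negative genes the medians were -1.17 and -0.59. Il17f had 2.66 in Treg and 3.19 in T-effector cells, with an adjusted p of 0.721 for the difference, and Serpinb1a had 3.98 and 4.29 (adjusted p = 1). For Il10 the values were 2.91 and 1.73 (adjusted p = 0.924).

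Il2 was among the genes chosen by rule whose interaction differed. In T-effector cells it was at 7.93, 7.85 and 8.05 with IL2 alone, 7.07, 7.12 and 6.83 with TGFb, 7.03, 6.94 and 6.98 with IL6 and 6.30, 6.29, 6.15 and 6.16 with both. The level with both was like that in Treg, but the single cytokines lowered it less there. The T-effector interaction was 0.19 ± 0.14 (SE), and the difference of 1.09 ± 0.15 (SE) had an adjusted p of 0.00332, with the same limit at the bottom of the scale. Cd24a had the largest difference of the negative genes chosen by rule, -2.58 ± 0.33 (SE, adjusted p = 0.00224). In T-effector cells it was at 7.88 to 8.39 with TGFb, level with the 7.84 to 8.17 of IL2 alone, and at 8.65 to 8.97 with IL6 and 8.76 to 9.27 with both. There its interaction was 0.33 ± 0.31 (SE).

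Il9 differed by 3.03 ± 0.56 (SE, adjusted p = 0.0299). In T-effector cells TGFb alone gave the highest signal, 9.85, 9.80 and 9.52, against 7.38 to 7.77 with IL2 alone, 7.15 to 7.47 with IL6 and 8.51 to 9.07 with both, an interaction of -0.61 ± 0.53 (SE). Timp1 differed by 1.20 ± 0.22 (SE, adjusted p = 0.0299), with an interaction of 1.29 ± 0.21 (SE) in T-effector cells. Fbln2 differed by -1.06 ± 0.20 (SE, adjusted p = 0.0378), with -0.82 ± 0.19 (SE) there. The count of 24 rested on few arrays. Without slide B or without slide D limma called 0 genes, with 540 and 479 at an unadjusted p under 0.05 against 838 with all arrays, and leaving out 1 array in turn gave 4 to 126.

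**Figure D4:**
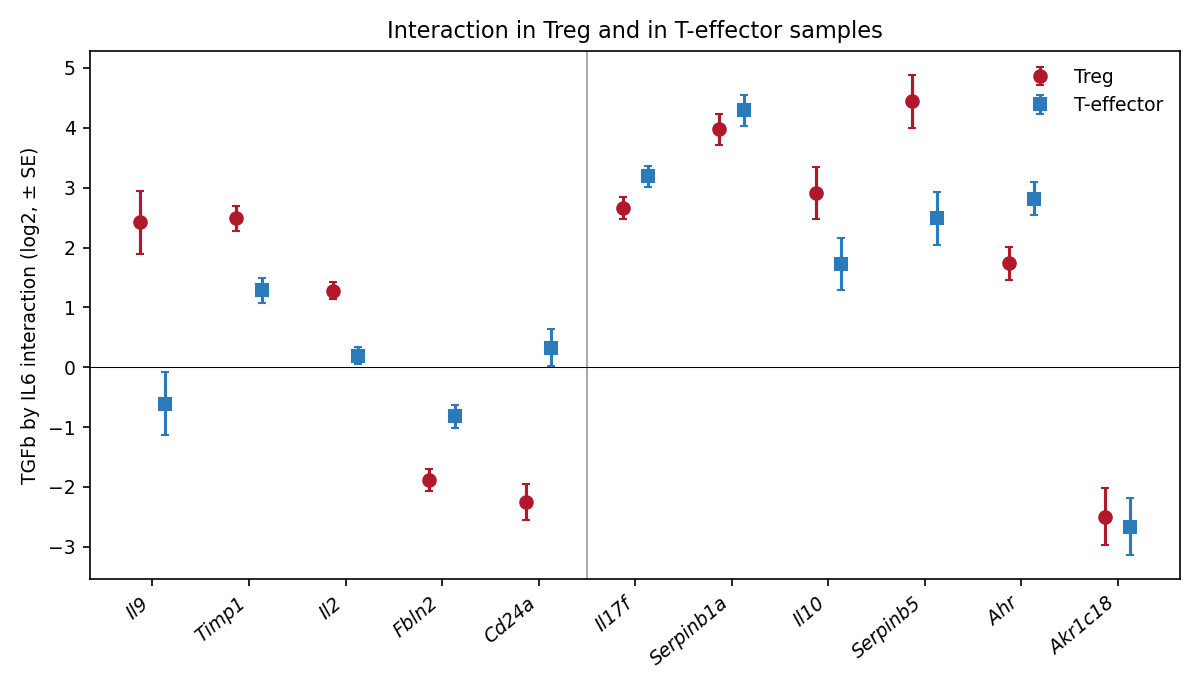
The interaction (log2, points, with bars of 1 SE) is shown in Treg and in T-effector cells for 11 genes. In 5 of them the difference was called (Il9, Timp1, Il2, Fbln2 and Cd24a), and in the other 6 it was not (Il17f, Serpinb1a, Il10, Serpinb5, Ahr and Akr1c18).

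Because no slide held all conditions, the fit was repeated with slide as a term and with other sets of arrays. With slide as a block 341 genes were called, 179 of the 183 among them. Without IL6 array 2 the count was 426, without TGFb array 3 it was 121, and without IL6 arrays 1 and 3 it was 353, with 116 of the 183 among them. Of 34 called genes chosen by rule, 16 stayed past the threshold under every setting tried and 11 of these also stayed within 1.5 times of their value. Il17f was 2.75 with slide as a block, 2.64 on slides D and E alone, which were scanned on 1 day, and 2.81 without IL6 arrays 1 and 3. For Il10 the same 3 values were 2.75, 2.02 and 3.52, and for Il2 they were 1.33, 1.25 and 1.34. The sum of the single effects of Il2 lay below the bottom of the scale, so its positive sign does not show stability.

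Single settings moved some of the other values. Agilent's own processed signals gave larger interactions for Il1r1 (5.53), Colec11 (5.02), Serpinb1c (3.88), Cxcl10 (3.38), Cebpd (3.19), Fbln2 (-3.50) and Adgrg1 (-2.81), all past the threshold. Without slide D, 10 genes chosen by rule lost the call. These were Cebpd, Satb1, Cxcl10, Il9, Lsr, Plac8, Akr1c18 (-2.69, adjusted p = 0.0969), Pou2af1 (2.39, 0.0944), H1f5 (-1.86, 0.0686) and Tnfrsf9 (-1.08, 0.0928). Without slide B, 7 lost it. They were Cxcl10, Il9, Lsr, Plac8, Akr1c18 (-2.38, adjusted p = 0.182), H1f5 (-1.78, 0.0508) and Tnfrsf9 (-0.94, 0.0783). With Treg channels only, 7 lost it as well. These were Cxcl10, Il9, Lsr, Plac8, Akr1c18 (-2.555, adjusted p = 0.152), Pou2af1 (2.35, 0.0549) and Tnfrsf9 (-0.97, 0.0886). On slides D and E alone, Il9 was 1.36 (adjusted p = 0.00545) and Nlrp6 was -1.15 (adjusted p = 0.00912).

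**Figure D5:**
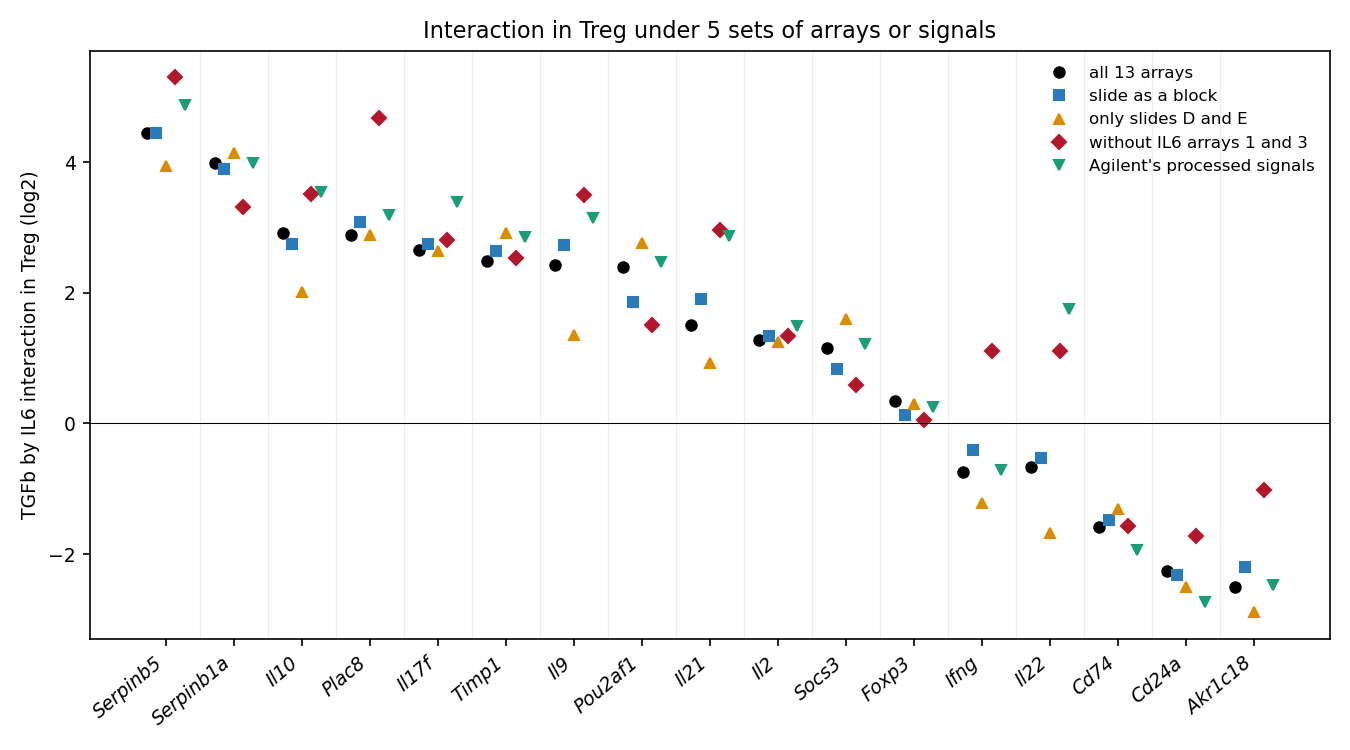
The interaction (log2) of 17 genes is shown from all 13 arrays and under 4 other settings: slide as a block, slides D and E only, without IL6 arrays 1 and 3, and Agilent's own processed signals. Il17f and Il10 stay on the positive side in all 5, and Akr1c18 moves from -2.50 to -1.02 without IL6 arrays 1 and 3. Il2 stays positive too, but the bottom of the scale limits its interaction, so its sign is no test.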

How the data were processed

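Per the file headers, Agilent Feature Extraction 9.5.1.1 (named in the submitters' processing notes too) gave the deposited values, scanner intensities of each spot in both dyes. Mean signal intensities and median backgrounds were used here. The deposited arrays hold 45018 spots, 1639 of them controls.

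In R 4.3.3 with limma 3.58.1, background was corrected by normexp (offset 50, parameters fitted without spots marked for their background), followed by loess within and Aquantile between arrays. Control spots and outliers were left out. A probe was kept if 3 or more of the 26 channels were well above background and no more than 3 arrays were missing, and the brightest probe of each gene was tested (19901 genes). All 26 channels entered a separate-channel fit (intraspot correlation 0.452, 17 residual degrees of freedom) with 8 means by condition and cell type and a dye term. The interaction was tested with limma's moderated test at an adjusted p under 0.05. The fit was also run on simulated data. No outcome of that check is given here, and it is not taken to show that the p-values hold where arrays share a slide.

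Genes were named by rule: 18 chosen genes, up to 3 called members of each of 23 lists, and the 10 highest and 10 lowest called interactions that kept their sign under a slide block and without each array. A few genes of these lists are not reported here. Members and lists were chosen with earlier results of these data known. Promoters came from RefSeq (GRCm38.p6). The labels number arrays within conditions, but these numbers do not pair them: arrays with the same number correlated between -0.606 and 0.66 in their deviations. Slide did group them. Arrays of different conditions on 1 slide correlated between 0.125 and 0.669 with the same dye and between 0.347 and 0.502 with the other. The medians across slides were -0.272 and -0.0643. The main fit has no slide term, so its p-values treat arrays of 1 slide as independent. The settings tried are named in the closing section.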

Additional observations from a re-analysis of the deposited data

Results flagged for a closer look

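Within the 4 arrays given both cytokines, 2 named genes had 1 array far from the others by Dixon's criterion, which chance meets in about 1 of 20 groups. Nupr1 was at 8.305 on array 2, where the nearest other array was at 8.077. Pou2af1 was at 10.893 on array 3, where the nearest was at 10.989. In both genes the distance was small beside the interaction.

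For 5 named genes the interaction differed between Treg and T-effector cells by limma's test of the difference itself. The Treg value was the higher in Il2 (by 1.087), Il9 (by 3.031) and Timp1 (by 1.204). It was the lower in Cd24a (difference -2.577) and Fbln2 (difference -1.062). The adjusted p-values ran from 0.00224 in Cd24a to 0.0378 in Fbln2. In a fit of the log ratios, without slide B and without slide D, limma called the difference for 0 genes. These calls therefore depend on the fit and on the arrays.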

How the results depend on the processing

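The sign of all 183 called genes was kept under every setting tried except 3 settings that kept 182 (Agilent's processed signals, without slide E, without IL6 arrays 1 and 3), and of the 183 the stricter filter tested 179. The count of called interactions was 91 with Treg channels only, 63 with median centring, 284 with the spatial trend removed, 341 with slide as a block, 115 with arrays of a slide and condition averaged, 352 without slide A, 111 without B, 96 without D, and 121 to 426 without 1 array. Added after seeing the data, it was 461 on slides D and E, 379 with scan day as a block and 353 without IL6 arrays 1 and 3. The replicate block gave 178, with 163 of the 183 among them, and ended the calls for Cxcl10 (1.73) and Plac8 (2.93). Array numbers do not pair the arrays.

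The 24 differences between Treg and T-effector cells became 9 without the dye term, 106 with Agilent's processed signals, 9 with normexp fitted on all spots, 41 with quantile normalization, 107 with the spatial trend removed, 5 with slide as a block, 10 with the replicate block, 12 averaged, 189 without slide A, 236 on slides D and E, 7 with scan day as a block, 186 without IL6 arrays 1 and 3, and 4 to 126 without 1 array. With limma they were 0 without slide B, 0 without slide D and 0 in a fit of the log ratios, with 540, 479 and 719 genes at an unadjusted p under 0.05 against 838.

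Named genes that did not pass turned sign as follows, and the cause was not tested. Without slide E and without IL6 arrays 1 and 3, respectively, Il22 was 1.123 and 1.104, Il2ra 0.308 and 0.221, Ifng 1.038 and 1.101, Smad7 0.214 and 0.179, Maf 0.264 and 0.203, and Ccl20 -0.508 and -0.570. Foxp3 was -0.039 without slide E. With Agilent's processed signals Il22 was 1.746 and Il23r 0.885. Il23r was also 0.010 with Treg channels only, 0.001 with the replicate block, 0.013 without slide B, 0.103 without D, and -0.141 to 0.033 without 1 array. Maf was also 0.402 with slide as a block, 0.086 with the replicate block, 0.132 averaged, 0.215 without slide C, 0.518 on slides D and E, 0.563 with scan day as a block, and -0.474 to 0.215 without 1 array. Ccl20 was also -0.057 without slide A, -0.255 on slides D and E, and -0.416 to 0.745 without 1 array. Of 34 called named genes 18 lost the call under at least 1 setting, 4 of them without 1 array (Cxcl10, Il9, Lsr and Plac8). Signals near background limit the low conditions of Il17f, Colec11, Serpinb5, Edn1 and Il2.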

Other observations

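Other called genes, chosen after their values were seen, fall into the same groups. Among positive genes, Procr, the endothelial receptor of protein C, had an interaction of 1.70 (adjusted p = 0.0368), the lysosomal protease legumain (Lgmn) 1.63 (adjusted p = 6.6e-04) and Slpi, an inhibitor of leukocyte proteases, 1.24 (adjusted p = 0.0073). The growth factor receptors Igf1r (1.26, adjusted p = 0.00543) and Acvr2a (1.03, adjusted p = 0.00272) were also positive. Gpr15, a receptor that guides T cells to the large intestine, was at 8.43 to 9.36 with both cytokines and at 6.09 to 7.32 on the 9 other arrays, an interaction of 1.64 ± 0.37 (SE, adjusted p = 0.0317).

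Gbp2, an interferon-induced GTPase, was at 14.38 to 14.63 with IL2 alone, 13.13 to 13.47 with TGFb, 14.65 to 14.67 with IL6 and 14.88 to 15.29 with both, without overlap, and its interaction was 1.53 ± 0.18 (SE, adjusted p = 3.1e-05). Csf1, the growth factor of macrophages, was at 8.88 to 9.54, 6.93 to 7.26, 8.04 to 8.86 and 7.54 to 8.06 in these conditions, a positive antagonism of 1.40 ± 0.30 (SE, adjusted p = 0.0222). Ifitm3, an antiviral membrane protein, was at 8.72 to 9.44, 11.15 to 11.36, 8.34 to 9.59 and 9.95 to 10.12, a negative antagonism of -1.29 ± 0.30 (SE, adjusted p = 0.0352). Irf5, a transcription factor of innate immunity, was lowest with both cytokines, at 6.77 to 7.01 against 7.08 to 7.93 on the 9 other arrays, with an interaction of -1.25 ± 0.21 (SE, adjusted p = 0.00208). The lipid transporters Cd36 (-0.90, adjusted p = 0.0043) and Abcg1 (-0.94, adjusted p = 0.00319) were negative too.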
